A study of Brassica rapa with 36 samples.

Results

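Of 47135 Brassica rapa gene IDs counted along androgenesis, the formation of embryos from immature pollen cells, 29 kept a nearly even level across leaf and microspores of both lines studied. They were chosen on the counts themselves: a gene had to reach a mean of at least 50 CPM, its count per 1000000 gene counts of a library, in each of 8 groups, and its highest group mean could be at most 2 times its lowest. The 8 groups are stalk leaf, late unicellular microspores, and microspores with and without heat shock, in K2, a line described as inducible, and 49CX, described as non-inducible. The even level in these groups is therefore a description and not a finding, whereas K2 pollen of the flowering stage and the 2-cell, 4-cell and 8-cell embryos of K2 had no part in the choice. Of the 47135 IDs, 695 met the level, and the 29 steady genes were 4.17% of those.

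Each of the 12 groups had 3 libraries of isolated cells, made from total RNA by a low-input strand-specific protocol. The labels give no temperature or length for the heat shock and no number of cells. They do not state that the replicates are separate plants, and every p-value below reflects the scatter of the libraries at hand, part of which may be technical. Gene counts ran from 85651 to 1179935 in the 24 libraries of the 8 groups and from 6021 to 170479 in the 9 embryo libraries. One pollen library held 118317 gene counts; the other pollen replicates, 2 and 3, had none and are not analysed further. Libraries within an embryo stage stood apart from each other. Pearson's r of log2 CPM between replicates was -0.263 to 0.344, against 0.681 to 0.899 within the 8 groups. Each r was taken over genes with at least 20 counts in both libraries together. That left 125 to 3817 genes in embryo pairs and 1749 to 14696 in pairs of the 8 groups. The ranges therefore do not rest on the same genes.

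Genes whose transcripts stay at a like level in many tissues are often called housekeeping genes, because many serve tasks that every cell performs, such as protein synthesis, protein turnover and the cytoskeleton. A few are used as internal references when transcripts are compared between tissues, and a reference suited to one set of tissues can fail in another. Microspores are the cells released after meiosis in the anther, which normally mature into pollen, a cell type that stores transcripts for germination and tube growth. A stress such as heat can turn microspores of some Brassica lines towards embryo formation instead. The files do not pair the IDs with names and 0 of them matched the reference gene table, so no function is given for any member, and the labelled cell types could not be checked against marker genes.

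Steadiness here means a bounded ratio. The ratio of the highest to the lowest of the 8 group means ran from 1.35 to 1.98 among the 29, with a median of 1.78, against a median of 3.47 over all 695 genes that met the level. The highest and lowest group did not overlap in library values for 25 of the 29, beside 98.6% of the 695. The 4 members whose extreme groups did overlap were BraC01g034180.1, BraC05g003380.1, BraC09g029270.1 and BraC06g032810.1. The even level was also tied to the scale: with TMM scaling 47 genes met the same limits, 5 of the 29 among them, and with DESeq2 size factors 58 genes did, 8 of the 29 among them.

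Mean levels over the 8 groups ran from 65.7 to 509 CPM with a median of 103 CPM; 17 members were above 100 CPM and 4 above 200 CPM. All 29 had a count in each of the 24 libraries. The thinnest group of a member held 17 to 153 counts over its 3 libraries, which alone gives a counting error of 8.08% to 24.3%. The coefficient of variation of the 8 group means was larger than the median one between replicates for 17 members. Its median was 19.5% between groups and 18.3% between replicates. The former is taken between means of 3 libraries and the latter between single libraries, which scatter more than means. The values are therefore not on the same footing and do not show that groups differed no more than replicates.

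**Figure D1:**
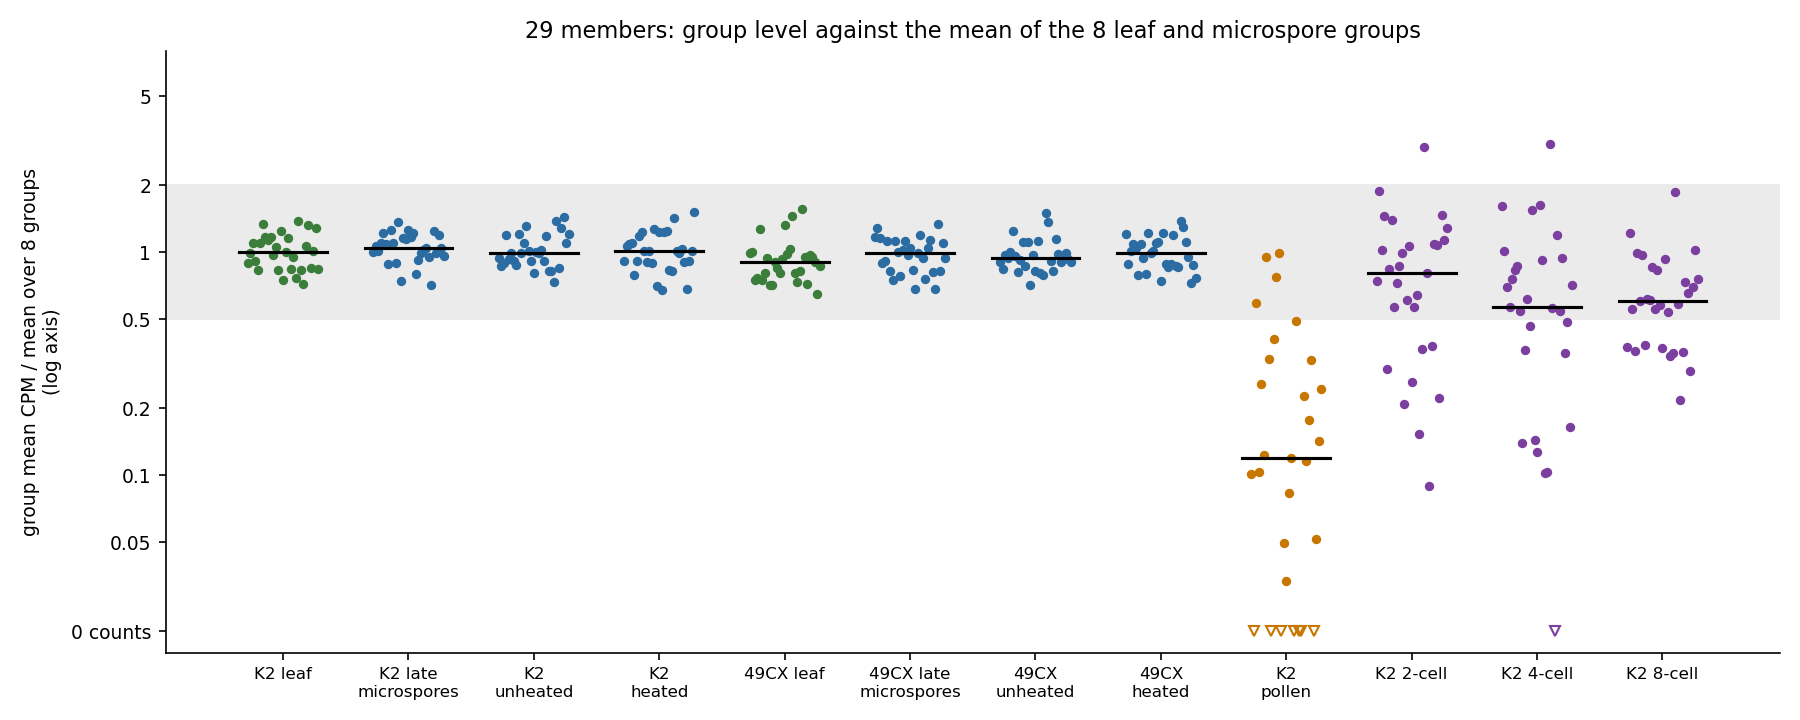
Level of each of the 29 members in every group, as the group mean CPM divided by the member's mean over the 8 leaf and microspore groups (log axis; points are members, bars medians, open triangles members with 0 counts). Grey marks a 2-fold range to either side; points in the 8 groups lie within it by the choice of members, while pollen has 25 members below it and the embryo stages spread widely.

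BraC01g034180.1 had the lowest ratio of all, 1.35. It stood at 60.8, 90.6 and 71.2 CPM in the 3 K2 leaf libraries, its lowest group. Its K2 microspores gave 92.5, 64.6 and 92.3 CPM at the late stage, 80.5, 72.3 and 82.0 CPM without heat and 73.5, 72.0 and 82.1 CPM with heat. The K2 libraries of all 4 groups overlapped. In 49CX it stood at 75.0, 89.5 and 83.7 CPM in leaf, and at 125, 70.1 and 96.9 CPM in late microspores. Unheated 49CX microspores gave 79.9, 53.2 and 91.9 CPM, and heated ones 74.9, 123 and 102 CPM, its highest group. The libraries of its highest and its lowest group overlapped.

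The next in order of ratio were BraC03g011600.1, with group means from 114 to 175 CPM, BraC04g017860.1, from 64.6 to 99.1 CPM, and BraC05g003380.1, from 62.8 to 97.5 CPM. BraC10g000280.1 ran from 51.7 to 83.4 CPM and BraC07g032640.1 from 51.4 to 84.9 CPM. Single libraries strayed further than the means: BraC07g032640.1 gave 143, 35.0 and 52.9 CPM in the 3 late microspore libraries of 49CX. The most abundant member, BraC02g007520.1, had group means from 357 CPM in heated K2 microspores to 635 CPM in K2 leaf. The next, BraC09g066390.1, ran from 188 CPM in heated 49CX microspores to 334 CPM in 49CX leaf.

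**Figure D2:**
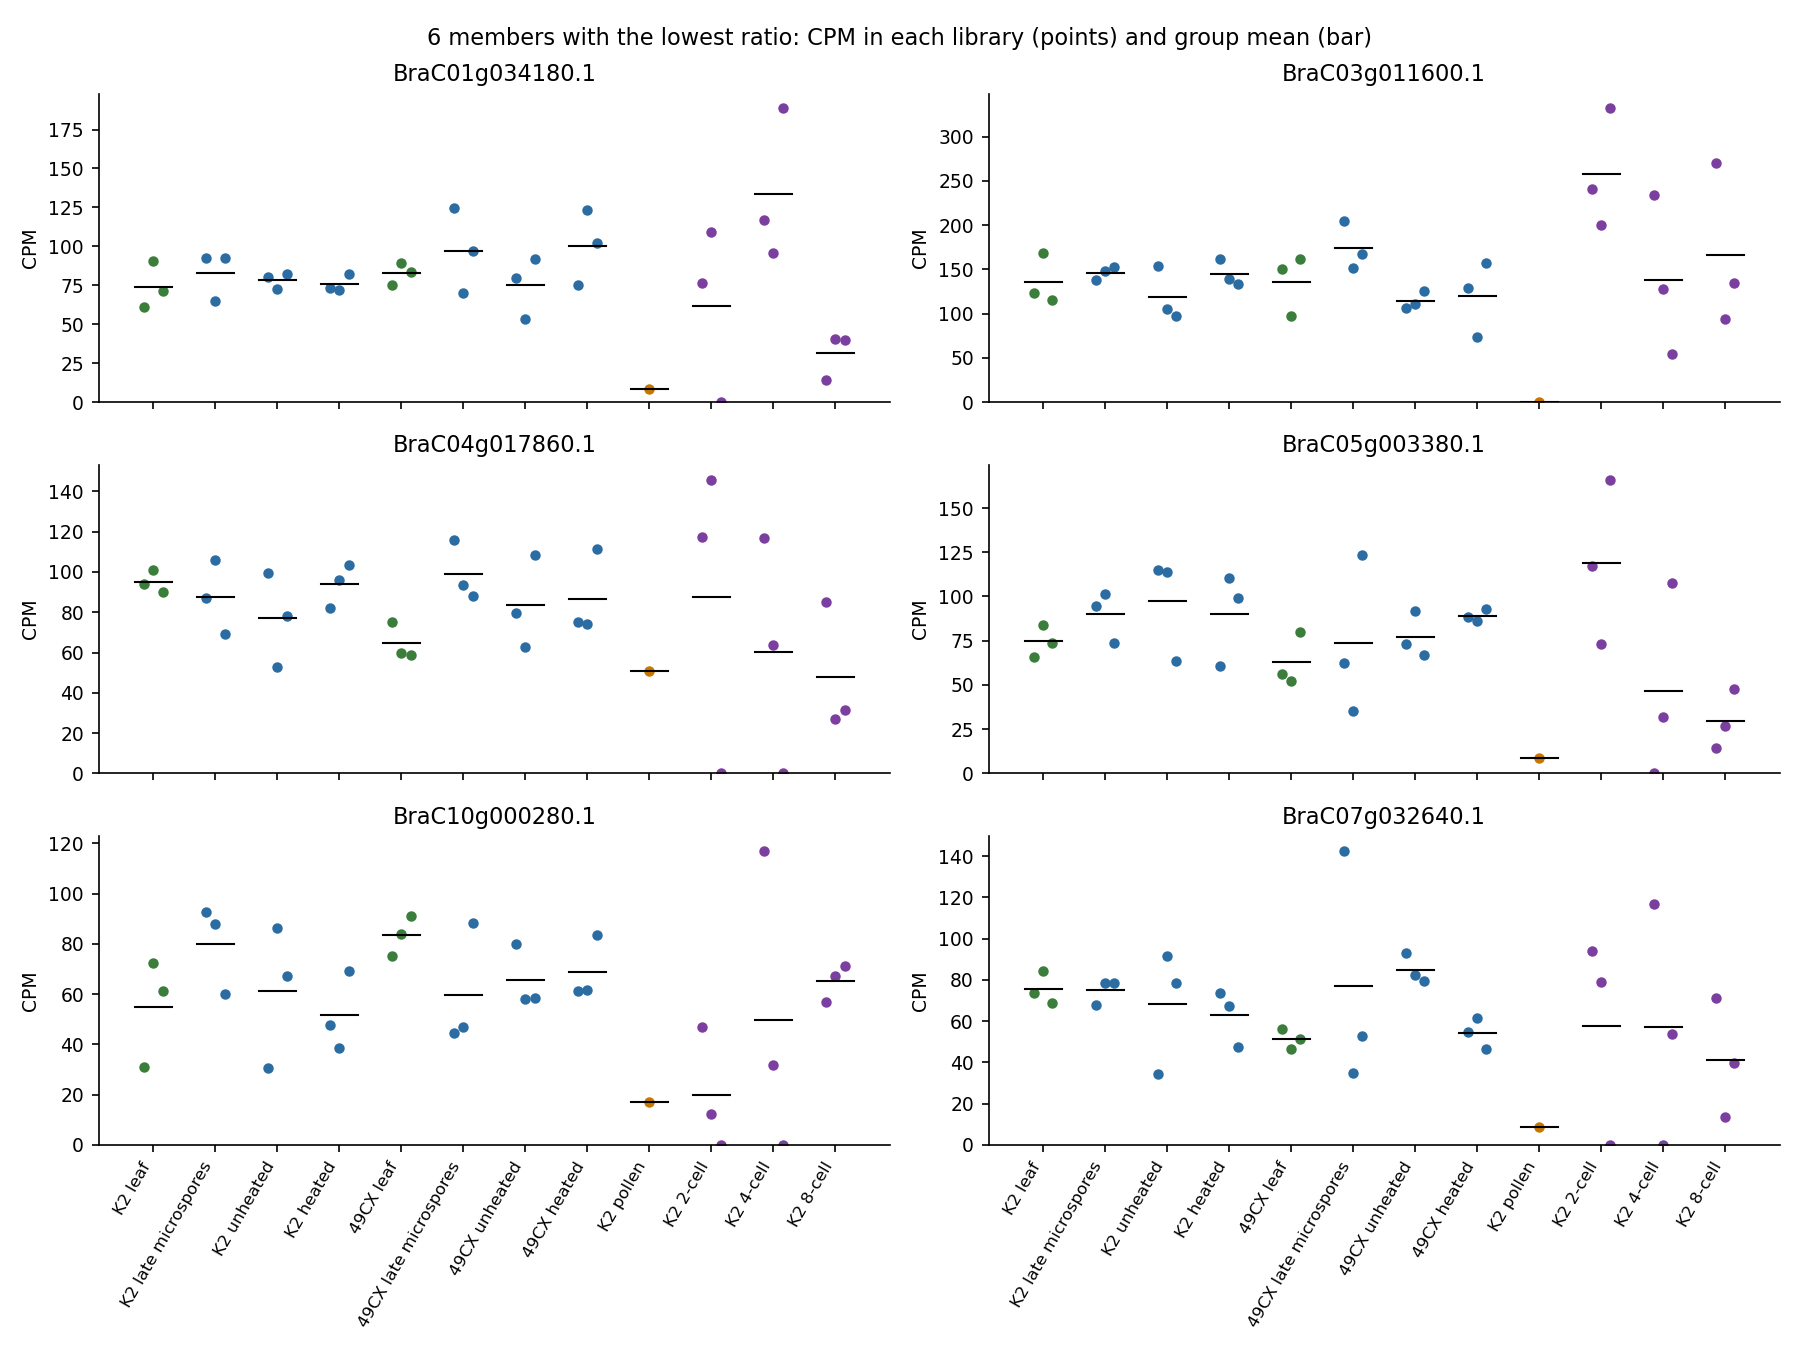
CPM of the 6 members with the lowest ratio in each library (points) with group means (bars), by group. BraC01g034180.1 stays between 53.2 and 125 CPM in the 24 leaf and microspore libraries; pollen is 1 library, and the embryo libraries of each gene spread more widely than those 24, in part at depths where 1 count is worth 166 CPM.

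Just inside the limit was BraC04g033120.1, whose lowest group mean was 52.9 CPM and highest 105 CPM, a ratio of 1.98. Just outside it was BraC04g007600.1, from 104 to 208 CPM, a ratio of 2.00009. Both limits bear on the number of members. Of the 695 genes at the level 666 had a ratio over 2, and 110 genes with a mean above 0 in every group had a ratio of at most 2, of which 81 had a group under 50 CPM. The nearest of those had a lowest group mean of 48.0 CPM, and the lowest among the members was 51.4 CPM.

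Over the whole list, differences between tissues and between lines had medians near 0. The log2 difference of leaf minus the mean of microspores had a median of 0.02 in K2, above 0 for 15 of 29, and of -0.13 in 49CX, above 0 for 10 of 29. The log2 difference of K2 minus 49CX had a median of 0.09 and ran from -0.44 to 0.44. Leaf of 49CX was the lowest group for 9 members and the highest for 4. Unheated K2 microspores were the highest for 5 and the lowest for 1.

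Heat shock was among the contrasts that chose the members, so its counts are given without reading anything from them. In K2, edgeR's quasi-likelihood test called 7 members lower and 1 higher with heat at an adjusted p under 0.05, where 28.8% of the 9376 genes tested were called lower and 27.6% higher. In 49CX it called 1 member lower and none higher, where 5.59% of all genes were called lower and 3.73% higher. An unadjusted p under 0.05 was reached by 10 members in K2 and 2 in 49CX. Over all genes the shares at that level were at least those of the calls above, since adjustment never lowers a p. The member raised in K2 was BraC10g033550.1 and the member lowered in 49CX was BraC08g031120.1, the latter named after its values were seen. The 49CX call, at an adjusted p of 0.0480 by edgeR, was lost in 17 of 25 alternative fits.

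Genes chosen anew with some libraries left out describe how far the rule carries over to libraries it did not use. They are no separate check of the 29, which were chosen on all 24 libraries. When members were chosen on 2 of the 3 replicates of each group, 24 to 30 genes met the limits, 17 to 20 of them among the 29. Their median ratio was 1.76 to 1.80 in the libraries used. In the 8 libraries not used, 1 for each group, it was 2.97, 2.70 and 2.50 for replicates 1, 2 and 3 left out in turn. Genes that met the level alone had median ratios of 4.37, 4.00 and 4.05 in the same left-out libraries. Few genes kept a ratio of at most 2 there: 4 of 27, 4 of 30 and 7 of 24 chosen genes, beside 2.38%, 1.77% and 2.42% of those that met the level. Single libraries carry more counting error than means, in both sets.

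Summed over all 29, the steady genes held 0.305% to 0.434% of gene counts in the 24 libraries. In K2 the share was 0.394% ± 0.0350 in leaf, 0.404% ± 0.0305 in late microspores, 0.384% ± 0.0288 without heat and 0.380% ± 0.0155 with heat (SD, n = 3). In 49CX it was 0.353% ± 0.0532, 0.362% ± 0.0209, 0.359% ± 0.0176 and 0.374% ± 0.0157 in the same order (SD, n = 3). The groups with the highest and the lowest of these 8 means, late K2 microspores and 49CX leaf, overlapped in library values. Outside the 8 groups the stage means in embryos and the pollen library were lower than each of the 8 means. Embryos of 2 cells held 0.331% ± 0.0321, those of 4 cells 0.228% ± 0.0573 and those of 8 cells 0.243% ± 0.0724 (SD, n = 3), and pollen held 0.0718%. Single libraries overlapped: 2-cell replicates 1 and 3, at 0.362% and 0.332%, and 8-cell replicate 1, at 0.327%, lay inside the range of the 24 libraries. Every other embryo library lay below that range. The exact Clopper-Pearson 95% interval in pollen was 0.0574% to 0.0888%; like all intervals and floors given here it covers counting error only, because without molecular identifiers reads of 1 molecule cannot be recognised. The other 666 genes that met the level moved the same way, from 10.5% to 16.4% in the 24 libraries to stage means of 10.1%, 8.16% and 8.72% in embryos of 2, 4 and 8 cells and 4.13% in pollen.

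**Figure D3:**
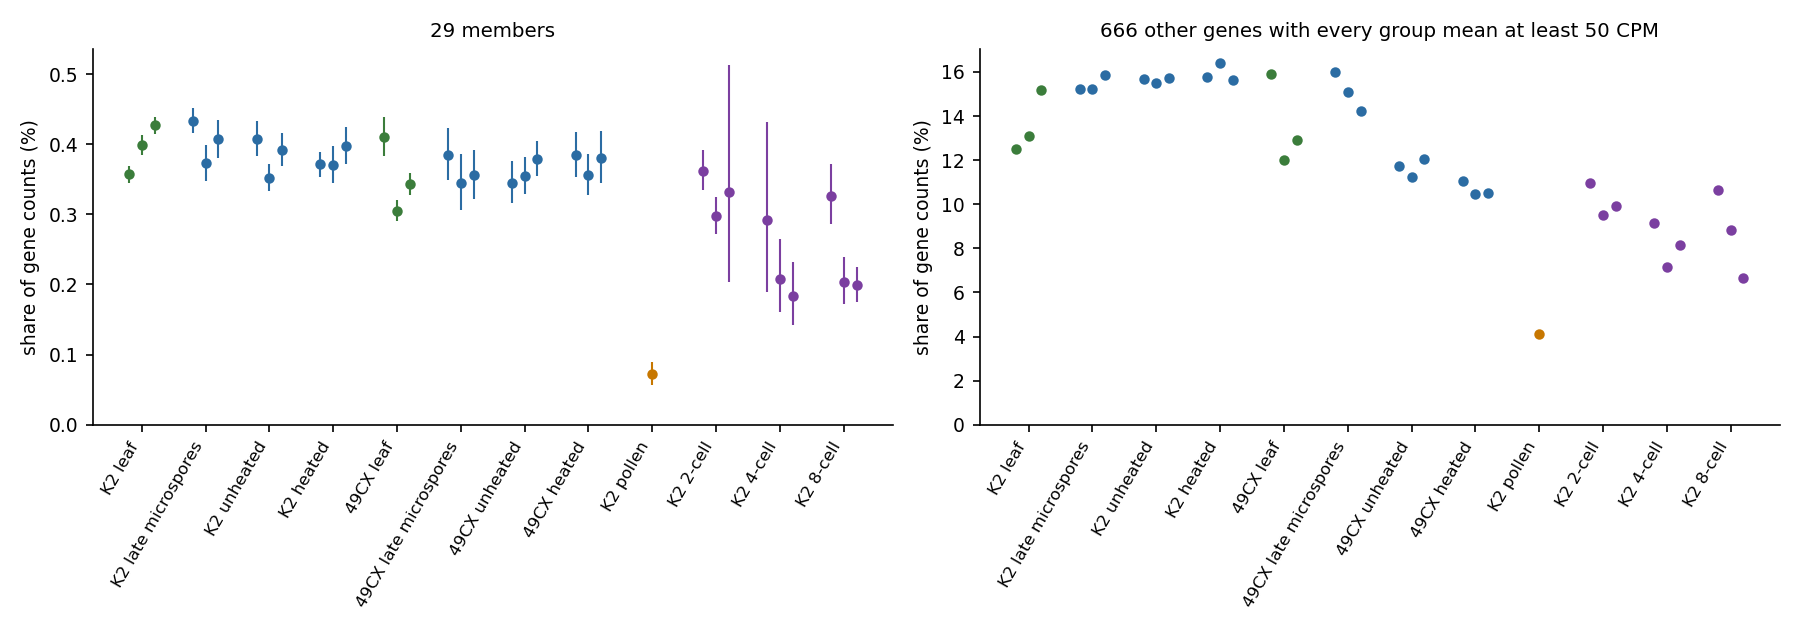
Share of gene counts held by the 29 members (left, with exact 95% intervals for counting error) and by the other 666 genes that met the level (right), 1 point per library. Members hold 0.305% to 0.434% in the 24 leaf and microspore libraries, 0.183% to 0.362% in embryos and 0.0718% in pollen.

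Most steady genes were lower in pollen than in leaf and microspores. At least 2-fold lower CPM than the mean of the 8 groups was found for 25 of the 29, and at least 2-fold higher for none. The same fold was passed by 90.8% of the 695 genes that met the level downwards and by 1.44% upwards, so the count of members lies near the background. As a description, with 1 library and no test of the difference, pollen stood at a median of 0.120 of the 8-group mean for members and 0.0397 for the other 666 genes. By point values, 11 of 29 members and 476 of the 666 were at least 10-fold lower. The library is too shallow to resolve most of these folds. Against its floor of 3 counts, 25.4 CPM, only BraC02g007520.1 among the members passed 10-fold, at 20.1. The next, BraC09g066390.1, reached 9.91. The median 8-group mean of the 666 was 168 CPM, also less than 10 times that floor. Of members 7 of 29 had 0 counts, of the others 42.9%.

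Which transcripts fill the pollen library moves with this result. The 50 most abundant genes of the pollen library held 32.1% of its counts, against 4.12% to 22.0% in the 24 libraries, and a share of counts taken by some genes lowers the CPM of the rest. The part this plays was not tested, since the files hold no outside standard. On DESeq2 size factors 17 members were at least 2-fold lower and 3 higher, beside 79.0% and 6.91% of the 695. In bulk libraries fewer cells of a type and less RNA per cell cannot be told apart.

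The highest members in pollen, relative to the 8 groups, were BraC04g003270.1 and BraC09g056890.1, with 9 counts each. That is 76.1 CPM (exact Poisson 95% interval 34.8 to 144 CPM), beside means of 76.6 and 79.9 CPM over the 8 groups. For both genes the pollen level lay inside the range of the 8 group means, which held for no other member. BraC09g068180.1, with 127 CPM in pollen and a mean of 164 CPM, and BraC04g017860.1, with 50.7 and 85.9 CPM, were also within 2-fold of their means.

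At the other end, BraC10g033550.1 and BraC09g029270.1 had 0 counts in pollen. Their means over the 8 groups were 142.7 and 141.2 CPM, so against the floor of 3 counts, 25.4 CPM in this library, they were at least 5.63-fold and 5.57-fold lower. They are the most abundant of the 7 members at 0 counts, an order chosen after the values were seen. The most abundant member of all, BraC02g007520.1, had 3 counts, or 25.4 CPM (5.23 to 74.1 CPM), beside a mean of 509 CPM. For 19 of the 29 the interval of the pollen level lay below the lowest of the 8 group means. The same was not counted for the other 666 genes, so the number is not read as a trait of the members.

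**Figure D4:**
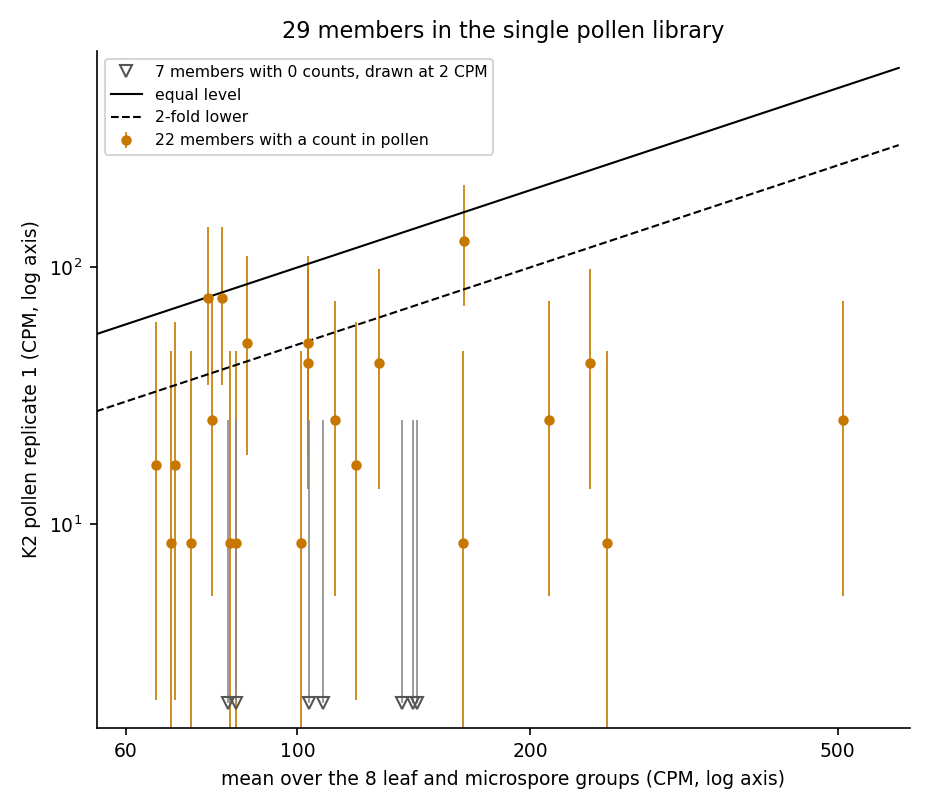
CPM of the 29 members in the single pollen library against the mean of the 8 leaf and microspore groups, both on log axes, with exact Poisson 95% intervals for counting error; open triangles are the 7 members with 0 counts, with lines up to the floor of 3 counts. BraC04g003270.1 and BraC09g056890.1 lie at 76.1 CPM on or near the line of equal level, and 25 members lie below the dashed line of a 2-fold lower level.

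In K2 embryos more steady genes fell than rose. Against the mean of the 4 K2 groups, edgeR's quasi-likelihood test on the mean of the 3 embryo stages called 16 of 29 members lower and 1 higher at an adjusted p under 0.05. Over all 11998 genes tested 30.3% were called lower and 20.4% higher, and of the other 666 genes that met the level 477 were called lower and 23 higher. The median log2 change was -0.99 for members (interquartile range -1.23 to -0.53), -1.16 for the 666 and -0.49 for all genes. A gene chosen for a high level in the K2 groups enters this contrast with that level, so the nearer comparison is with the 666. Whether members and the 666 differ was not tested.

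By stage, the calls were fewer than over the 3 stages together. In 2-cell embryos 5 members were called lower and none higher, where 15.8% of all genes were lower and 22.8% higher. In 4-cell embryos it was 10 lower and none higher, beside 10.3% and 9.17%, and in 8-cell embryos 8 lower and 1 higher, beside 15.2% and 22.9%. Of the other 666 genes that met the level, 36.6%, 53.9% and 49.2% were called lower at 2, 4 and 8 cells. Median log2 changes by stage were -0.39, -1.45 and -0.82 for members, -0.72, -1.72 and -1.01 for the 666 and -0.22, -0.60 and -0.21 for all genes. The 4-cell values moved with the scale. By library size alone their medians were -0.95 for members, -1.19 for the 666 and -0.09 for all genes. On that scale 7 members and 33.8% of the 666 were called lower at 4 cells. TMM factors were 2.38 for 4-cell replicate 1 and 2.44 for 2-cell replicate 3, against 0.67 to 1.17 in K2 leaf and microspores. Again the difference between members and the 666 was not tested. In all, 15 members were called lower at no stage, 8 at 1, 3 at 2 and 3 at all 3 stages. The last 3 were BraC04g016300.1, BraC08g030560.1 and BraC09g066390.1. The same split was not counted for the 666, so it is not read as a trait of the members.

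These counts rest on shallow libraries. The 2-cell replicate 3 held 6021 gene counts and 4-cell replicate 1 held 8549, so that 1 count was worth 166 and 117 CPM and 13 and 15 members had any count. Without 4-cell replicate 1 the number of members called lower over the 3 stages was 25, with 11 called in 2-cell and 19 in 8-cell embryos. Members called in 4-cell embryos were 16 without 2-cell replicate 1 and 19 without 2-cell replicate 3, and those in 8-cell embryos were 5 without 8-cell replicate 2 and 3 without 8-cell replicate 3.

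BraC04g016300.1 was lowered most. Its K2 libraries gave 99.1, 68.3 and 111 CPM in leaf, 123, 78.5 and 148 CPM in late microspores, 92.0, 72.3 and 112 CPM without heat and 102, 130 and 108 CPM with heat. In embryos it gave 11.7, 18.2 and 0 CPM at 2 cells, 0 in all 3 libraries at 4 cells and 56.8, 0 and 15.9 CPM at 8 cells. The 4 embryo libraries with a count were below every library of the 4 K2 groups. In 8-cell replicate 2, at 0 counts, the floor of 3 counts was 40.2 CPM, also below the lowest K2 library, 68.3 CPM. A value of 0 does not place the remaining embryo libraries there, since 3 counts were worth 80.9 to 498 CPM in them. The fitted log2 change was -4.25 (SE 0.605, adjusted p = 6.22e-08), a size that depends on the prior count because 4-cell embryos had no count. Against the floor of 3 counts over the 4-cell libraries together, 39.0 CPM, the 4-cell level was at least 2.66-fold lower than the K2 mean of 104 CPM.

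BraC08g030560.1 was next, with a log2 change of -2.30 (SE 0.426, adjusted p = 1.10e-05). Its embryo libraries gave 29.3, 18.2 and 0 CPM at 2 cells, 0, 31.9 and 0 CPM at 4 cells and 42.6, 40.2 and 23.8 CPM at 8 cells, 18 counts in all. Leaf libraries of K2 stood at 57.6, 74.9 and 130 CPM. Unheated K2 microspores, at 153, 36.1 and 127 CPM, reached down into the embryo range in replicate 2. In BraC09g066390.1, the second most abundant member, the log2 change was -1.97 (SE 0.330, adjusted p = 1.71e-06), and its 6 embryo libraries with a count ran up to 107 CPM while its K2 libraries began at 132 CPM. It had 0 counts in 2-cell replicate 3 and 4-cell replicates 1 and 3, where the floor was 498, 351 and 80.9 CPM, so the former 2 libraries cannot show a level below 132 CPM.

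A single member, BraC03g004730.1, was called higher in embryos. It gave 129, 115 and 498 CPM at 2 cells, 585, 128 and 53.9 CPM at 4 cells and 142, 134 and 190 CPM at 8 cells. K2 leaf stood at 52.2, 74.9 and 64.4 CPM, late microspores at 86.9, 92.3 and 69.2 CPM, unheated ones at 138, 72.3 and 85.8 CPM and heated ones at 82.1, 72.0 and 51.8 CPM. The 8-cell libraries overlapped the K2 groups only in unheated replicate 1, and the 2 highest embryo values came from the shallowest libraries. Its log2 change was 0.78 (SE 0.265, adjusted p = 0.0126) over the 3 stages and 1.1 (SE 0.339, adjusted p = 0.00791) at 8 cells. The call over the 3 stages was lost in 16 of 29 alternative fits, with log2 changes from 0.15 to 0.97, and without 4-cell replicate 1 the change was 0.17. The same gene had 0 counts in pollen.

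**Figure D5:**
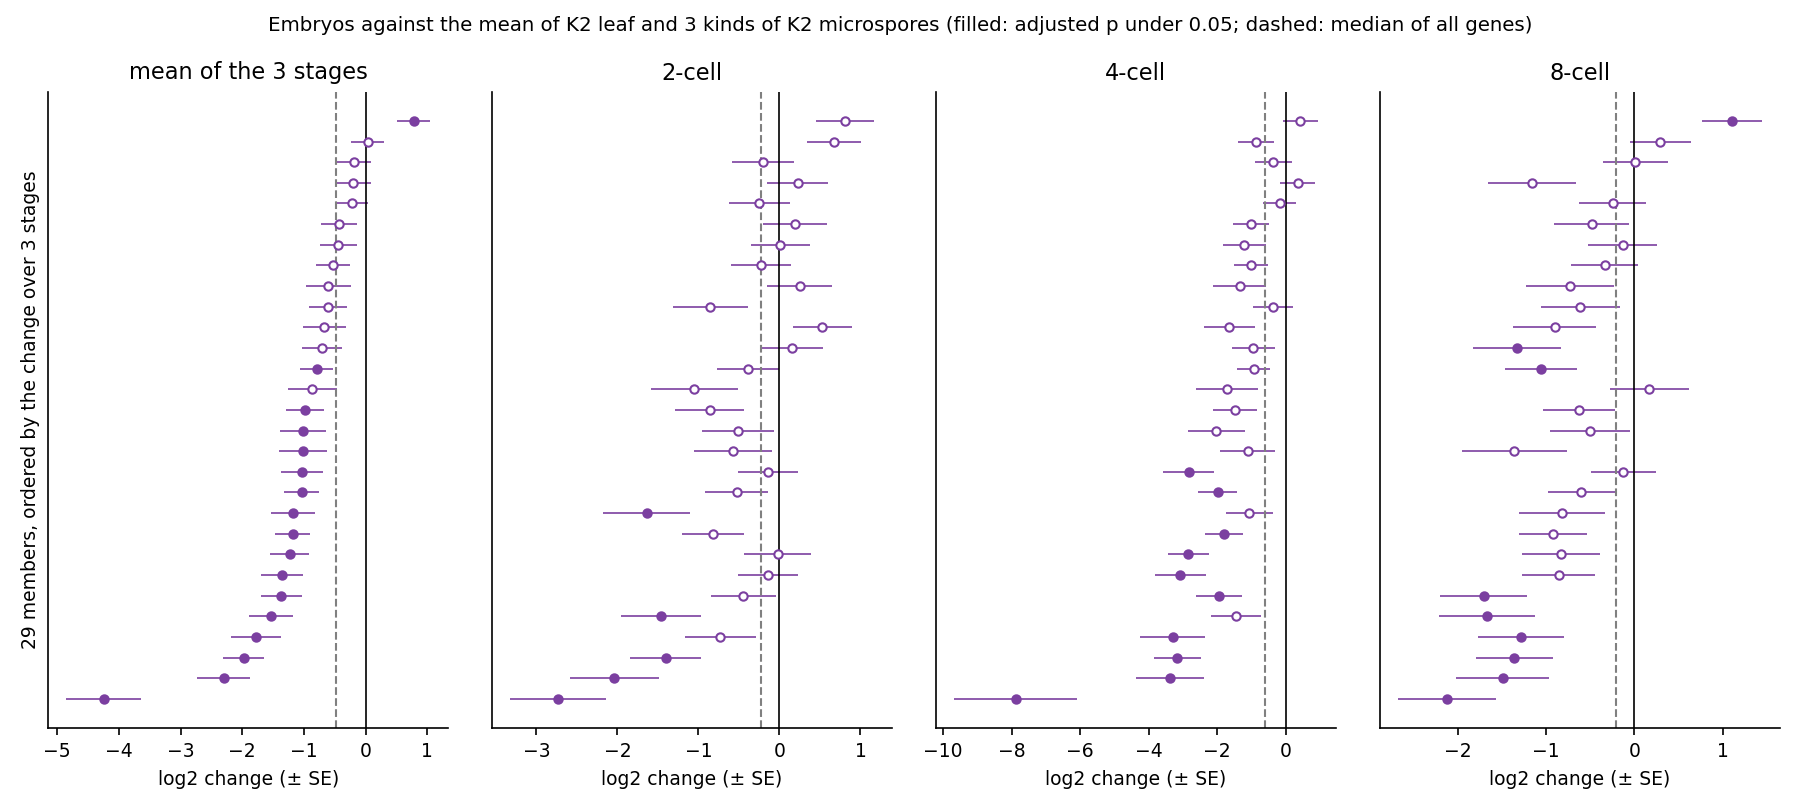
log2 change of the 29 members in embryos against the mean of K2 leaf and the 3 kinds of K2 microspores, ± SE, over the 3 stages and by stage, in 1 order from the lowest change at the bottom; filled points have an adjusted p under 0.05, the dashed line is the median of all genes, and the x axes differ in range. Over the 3 stages 16 filled points lie below 0 and 1 above.

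The most abundant member moved between embryo stages. BraC02g007520.1 gave 745, 389 and 498 CPM in 2-cell, 0, 31.9 and 189 CPM in 4-cell and 497, 295 and 95.1 CPM in 8-cell embryos. All 4-cell libraries were below all 2-cell ones, and 8-cell libraries overlapped both stages. From 2 to 4 cells the log2 change was -2.82 (SE 0.673, adjusted p = 0.0184), the 1 member called in that step. Over all genes 0.95% were called lower and 0.308% higher in it. An unadjusted p under 0.05 was found for 8 members, beside 2020 of the 11998 genes tested. The call was lost without 2-cell replicate 1, 4-cell replicate 1 or 4-cell replicate 2.

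No member was called by edgeR from 4 to 8 cells or from 2 to 8 cells. An unadjusted p under 0.05 was reached by 7 and 4 members, beside 1522 and 1281 of the 11998 genes tested. Over all genes 0.0833% and 0.575% were called higher and 0% and 0.442% lower. With 3 uneven libraries a stage, these steps do not show that levels were equal.

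The level in embryos can also be set against the range of the 8 group means, as a description. Pooled over the 9 embryo libraries, the CPM of 12 members lay inside the range of their 8 group means, that of 15 below it and that of 2 above it. Of the 12 inside, 4 were among those called lower in embryos. The pooled level leans on 2-cell replicates 1 and 2, which held 48.6% of the gene counts of the 9 libraries: BraC02g007520.1 counts as inside at a pooled 393 CPM, with a mean of 73.5 CPM in 4-cell embryos. Of the other 666 genes 57.8% lay inside their own, wider range. A count in all 9 embryo libraries was found for 5 of the 29, among them BraC03g011600.1 and BraC09g056890.1. Depth limits this number. In 2-cell replicate 3, the shallowest library, 13 members and 290 of the 666 were detected. For 4-cell replicate 1, the next shallowest, it was 15 and 357. At its 8-group level the median member would give 0.621 counts in the former and 0.882 in the latter. Detection in all 9 was not counted for the 666, so the 5 are not read as a trait of the members.

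BraC03g011600.1 gave 240, 201 and 332 CPM at 2 cells, 234, 128 and 53.9 CPM at 4 cells and 270, 93.8 and 135 CPM at 8 cells. In K2 leaf it stood at 124, 168 and 115 CPM, and its K2 microspore libraries ran from 97.0 to 162 CPM. The 2-cell libraries were above all of these, and those of 4 and 8 cells lay on both sides. Its log2 change over the 3 stages was 0.03 (SE 0.272, adjusted p = 0.973), yet it had 0 counts in pollen, beside a mean of 136 CPM over the 8 groups.

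Pollen and embryos together divided the list. Lower in both, by a 2-fold limit in pollen and the test in embryos, were 15 members; 10 were lower in pollen alone by these limits and 1, BraC04g003270.1, in embryos alone. The 3 that were lower in neither were BraC09g056890.1, BraC04g017860.1 and BraC09g068180.1. Of all 695 genes that met the level, 90.8% were at least 2-fold lower in pollen. Of the 666 that are not members, 71.6% were called lower in embryos. How many of those genes were lower in both was not counted, so the split is not read as a trait of the members. BraC09g056890.1 gave 99.7, 66.9 and 166 CPM at 2 cells, 117, 63.8 and 27.0 CPM at 4 cells and 56.8, 121 and 55.5 CPM at 8 cells, beside 76.1 CPM in pollen. Its embryo change was -0.44 on the log2 scale (SE 0.305, adjusted p = 0.226). A p above the threshold does not show that its level was the same.

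Of the 5 members that also met the limits on the TMM scale, 4 were at least 2-fold lower in pollen, beside 90.8% of the 695. In embryos 1 of the 5 was called lower, and their median log2 change was -0.22. Of the 666, 71.6% were called lower, with a median of -1.16. These 5 were picked on the scale that the embryo test also uses, and they are few, so nothing is read from their counts. By the digits that follow BraC in the IDs, the 29 fell under all 10 prefixes; the fullest held 5 members and 14.8% of all IDs.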

How the data were processed

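The authors deposited 1 table of raw counts per library, reads per gene ID without normalization. The submitters' processing notes name Trim Galore, HISAT2, Picard and HTSeq; for versions, order, strand setting, build and annotation the sources used here give nothing. Summary lines without a gene entered neither library sizes nor tests; reads in no gene were 53.4% to 85.3% over the 34 libraries with gene counts. CPM is the count per 1000000 gene counts of a library. The steady genes and the named genes (6 lowest ratios, 2 highest means, the genes either side of the limit, the 2 extremes at each end in pollen and in embryos) were chosen with earlier results of these data known. A list of reference genes and markers could not be used, since 0 of 47135 IDs matched the gene table.

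edgeR 4.0.16 in R 4.3.3 fitted 21 K2 libraries (11998 genes) and, for heat, 18 microspore libraries (9376 genes), with TMM, filterByExpr, a robust quasi-likelihood fit and Benjamini-Hochberg adjustment over all genes. An SE is the log2 change divided by the square root of F. DESeq2 1.42.0 and limma 3.58.1 were alternatives. The fit was tested on simulated data: in the embryo comparison, over 9033 genes, 19 of 101 genes changed 2-fold and 92 of 96 changed 4-fold were recovered, and 9 of 120 calls were false. Apart from those changed genes, drawn from the more abundant ones, each simulated gene had the same level in all groups. In the data 30.3% of genes were called lower and 20.4% higher. The simulation therefore does not show how scaling or the rate of false calls behaves in the data. Pollen has 1 library and no test. Replicate libraries were compared by a chi-square over genes with at least 20 joint counts, and no pair agreed within sampling noise.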

Additional observations from a re-analysis of the deposited data

Results flagged for a closer look

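One difference between embryo stages passed its test among the 29 steady genes. BraC02g007520.1, the most abundant of them, changed by -2.82 on the log2 scale from 2-cell to 4-cell embryos. The step was tested directly between the stages by edgeR's quasi-likelihood test, with an adjusted p of 0.0184 over all genes, and all 3 of the 4-cell libraries were below all 3 of the 2-cell ones. The 4-cell libraries held 8549 to 37097 gene counts and 4-cell replicate 1 had no count of this gene. The part of depth in this difference was not tested.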

How the results depend on the processing

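The number of genes that met the rule was 47 with TMM, 58 with DESeq2 size factors, 52 at a floor of 30 CPM, 9 at 100 CPM, 1 at a ratio limit of 1.5 and 233 at 3, and 24 to 34 with libraries left out. The limit of 200 members was not reached, so that alternative gives the same 29. In pollen 3 members were higher with DESeq2 size factors; with libraries left out 24 to 25 were lower and 0 higher. In embryos, 26 members were lower without a filter on low counts, 25 with all 34 libraries in 1 fit and 7 with embryos and heated K2 microspores alone, where 21 members were tested; leaving out libraries gave 16 to 25. The count of higher members was 0 in those 3 fits and with DESeq2 size factors, and 0 to 1 with libraries left out. The median of all genes was -0.49 with TMM, -0.35 by library size and -0.65 with DESeq2 size factors, and the members' -0.99, -0.85 and -1.16.

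By stage, 2-cell calls were 10 with DESeq2's Wald test, 2 with limma voom and 5 to 11 with libraries left out. The 4-cell calls were 23 without a filter, 23 with all 34 libraries, 6 with heated microspores alone and 7 to 19 with libraries left out; the 8-cell calls were 14, 5 and 3 to 19 for the last 3 of these. From 2 to 4 cells there were 5 calls without a filter, 0 with voom, 6 with all 34 libraries and 0 to 6 with libraries left out. From 4 to 8 cells there were 1 without a filter, 2 with all 34 and 0 to 1 with libraries left out, and from 2 to 8 cells 0 in every fit run. With heat, K2 had 4 calls by library size, 2 with all 34 libraries and 6 to 9 with libraries left out. The 1 call in 49CX was 0 with DESeq2 size factors, library size, no filter, the Wald test or all 34 libraries, and 0 to 1 with libraries left out. The cause of these shifts was not tested.

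Replicate numbers did not pair the libraries of most groups. Deviations of same-numbered libraries correlated at -0.0785 to 0.342 in the K2 fit, over 0.1 in 2 of 63 pairs, and at -0.0350 to 0.0248 in the microspore fit. The pairs over 0.1 were all between 2-cell and 8-cell embryos, at 0.342 in replicate 1 and 0.115 in replicate 3, with -0.0241 in replicate 2. The labels do not say whether those libraries were prepared together. With the replicate block embryos still had 16 members lower and 1 higher, and heat in 49CX 0 called. Depth limits the embryo values: the floor of 3 counts was 17.6 to 498 CPM in embryo libraries and 2.54 to 35.0 CPM in the 24 others.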
